A study of Mus musculus with 14 samples.

Results

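RNA sequencing compared FAK-WT with FAK KO tumorspheres, 2 lines derived from the same knockout clone of mouse ovarian tumor cells, with 3 samples of each. These 6 samples, grouped by their labels, are described here, of 14 samples of 5 lines in the series. The parental KMF cells came from C57Bl6 ID8 ovarian cells that had been passaged in mice. FAK KO is the single clone KT13, in which CRISPR/Cas9 targeted exon 4 of Ptk2, the gene of focal adhesion kinase (FAK). FAK-WT is the same clone after lentiviral delivery of murine GFP-FAK under a CMV promoter, selection with puromycin and enrichment by flow cytometry. All were grown for 5 days as tumorspheres in serum-free medium without attachment. No line of the clone with an empty vector is used here, so that FAK, the vector, the selection and the enrichment cannot be told apart. The growth protocol calls the RNA samples independent, and the labels and the methods call those of these 2 lines replicates. None of these says that they came from separate cultures of each line, and the p-values then measure only the spread between these samples. The other lines serve for orientation, FAK-R454 (the same clone with GFP-FAK of the kinase-inactive R454 form, n = 2), KMF (n = 3) and beta-catenin ΔGSK (the same clone expressing active beta-catenin and not given FAK, n = 3).

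FAK is a cytoplasmic tyrosine kinase that integrins and growth factor receptors recruit to sites of adhesion, where it serves both as a kinase and as a scaffold for SRC, paxillin and other adaptors. It links the extracellular matrix to the actin cytoskeleton and is required for the turnover of adhesions. Tumorspheres are cell aggregates that grow without attachment to a surface. The comparison asked which transcripts differ when FAK is given back to cells that lack it.

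Fragments assigned to genes numbered 26075863 to 31410807 in the 6 libraries. Ptk2 (chromosome 15, 73205105 to 73423191 of GRCm38) was 20.5, 17.6 and 18.9 FPKM in FAK KO samples and 42.3, 42.5 and 45.4 FPKM in FAK-WT (log2 fold change 1.19, SE 0.07, adjusted p = 2.96e-05). The table does not separate the edited endogenous transcript from GFP-FAK, and Ptk2 lies on chromosome 15, whose tested genes were higher in FAK-WT by a median of 0.39 (log2) than those of the other chromosomes. After subtracting, in every sample, the median of the tested genes on its own chromosome (centred chromosomes below), the log2 fold change of Ptk2 was 0.89. Ptk2b, the gene of the related kinase PYK2, was 7.71, 9.47 and 8.44 FPKM in FAK KO samples and 9.04, 8.74 and 7.17 FPKM in FAK-WT and did not pass the test (log2 fold change -0.04, SE 0.11, adjusted p = 0.789). The lineage markers Wt1 (97.8 ± 2.71 FPKM in FAK KO samples and 107 ± 8.54 FPKM in FAK-WT, SD, n = 3), Msln (70.2 ± 7.43 FPKM and 97.1 ± 4.64 FPKM) and Gata4 (83.5 ± 5.6 FPKM and 75.3 ± 8.61 FPKM) were detected in both lines, whereas Krt7 did not exceed 0.420 FPKM. Of the 9 mesothelial and ovarian surface epithelium markers tested, 6 rose and 1 fell at any fold, where 15.6% and 25.2% of all genes did, and the list summed to 1181 to 1369.9 FPKM in FAK KO samples and 1663 to 1917 FPKM in FAK-WT. The leukocyte genes Ptprc, Cd3e and Tyrobp and the endothelial genes Kdr and Cldn5 had 0 fragments in all 6 libraries. The endothelial list as a whole (6 genes) summed to 17.9 to 19.3 FPKM in FAK KO samples and 17.5 to 18.6 FPKM in FAK-WT, nearly all of it Tek (at 18.1, 16.6 and 17.5 FPKM in FAK KO samples and 17.5, 17.2 and 16.2 FPKM in FAK-WT), and neither of its 2 tested members passed. The fibroblast genes Thy1 (0 fragments), Col1a2, Lum and Pdgfrb (at most 0.0556 FPKM) were at or near 0. The other 5 genes of the 9 in the fibroblast and pericyte list were expressed, matrix genes described below among them, 3 were called higher, beside 2.91% of all genes, and 1 fell by less than the fold required. That list summed to 97.8 to 137 FPKM in FAK KO samples and 157 to 185 FPKM in FAK-WT, with a median log2 fold change of 1.72, and the part of such cells in the matrix results was not tested. The macrophage gene Cd68, which many cell types express, was 3.02, 3.15 and 2.79 FPKM in FAK KO samples and 6.6, 6.97 and 12.3 FPKM in FAK-WT. In bulk RNA, fewer cells of a type and less RNA per cell cannot be told apart.

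The third samples of the 2 lines stood apart from the others in transcripts of glycolysis and of the hypoxia response, in opposite directions. Gapdh was 1940.1, 2028 and 1595 FPKM in FAK KO samples and 2218, 2526 and 5148 FPKM in FAK-WT. Counts of genes are therefore also given without both of these samples, an alternative chosen after the values were seen.

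Among 11841 genes tested, 344 were called higher in FAK-WT tumorspheres and 203 lower, which is 2.91% and 1.71% of the genes tested. A call required an adjusted p under 0.05 from limma and a log2 fold change of at least 1 in size on the log2(FPKM + 0.1) scale. At any fold, 1851 genes (15.6%) were higher and 2986 (25.2%) lower. Below, "rose" and "fell" are used for genes past the adjusted p. The many small changes depended on scaling. With median-of-ratios scaling 2347 genes were higher and 2135 lower at any fold, and with centred chromosomes 1945 and 1659. Without the third sample of each line 314 genes were called higher and 172 lower, and 416 of the 547 called genes kept their call.

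The genes that rose most were led by Ptgds, Col6a2 and Col6a1. The 25 leading rises had log2 fold changes from 2.42 to 4.41, and all 25 kept their call when any 1 sample was left out and with centred chromosomes. Ptgds (chromosome 2, 25466709 to 25470046), which makes prostaglandin D2 and also carries lipophilic molecules, was 3.35, 2.63 and 2.4 FPKM in FAK KO samples and 72.1, 69.7 and 45 FPKM in FAK-WT. The groups were far apart. Xdh, encoding xanthine oxidoreductase of purine breakdown, was 0.637, 0.619 and 0.514 FPKM in FAK KO samples and 6.44, 6.09 and 5.76 FPKM in FAK-WT (log2 fold change 3.17, SE 0.13, adjusted p = 3.70e-06), with little spread within either line. Trf, the gene of the iron carrier transferrin, rose by 2.42 and Apobr, a receptor for apolipoprotein B48, by 3.00 on the log2 scale. Rgma, a repulsive guidance molecule and BMP co-receptor, was 0.648, 0.631 and 0.349 FPKM in FAK KO samples and 4.36, 5.13 and 10 FPKM in FAK-WT, and the FAK-WT samples ranged over more than their FAK KO counterparts. Gfra1, the co-receptor for GDNF, was barely detected in FAK KO and reached 1.2, 1.04 and 1.13 FPKM in FAK-WT samples. The remaining leading rises were Cacng1 (3.17), Fam19a5 (2.93), Angptl7 (2.79), Fam84a (2.76), Hopx (2.68), Wipf1 (2.55), the epidermal Sprr2a3 (2.62), the collagens and matrix genes described next, Ndufa4l2 and Mt2, and the short loci RP24-282H12.1 and Gm13226. Fam19a5 differed among the samples of both lines, at 1.73, 1.19 and 0.222 FPKM in FAK KO samples and 3.96, 4.66 and 17.5 FPKM in FAK-WT, and its log2 fold change was 1.52 without the third samples.

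A group of 3 leading rises lies side by side on chromosome 1, between 193221630 and 193343878. Hsd11b1, whose enzyme regenerates active glucocorticoid, was 1.36, 0.630 and 0.519 FPKM in FAK KO samples and 5.25, 5.93 and 9.37 FPKM in FAK-WT (log2 fold change 2.95, SE 0.33, adjusted p = 0.000437). G0s2, an inhibitor of adipose triglyceride lipase, was 0.355, 0.547 and 0.255 FPKM in FAK KO samples and 2.83, 3.5 and 5.18 FPKM in FAK-WT (log2 fold change 3.02, SE 0.28, adjusted p = 0.000203). Lamb3, the beta 3 chain of laminin 332, was 0.170, 0.122 and 0.113 FPKM in FAK KO samples and 0.844, 1.22 and 1.95 FPKM in FAK-WT (log2 fold change 2.55, SE 0.33, adjusted p = 0.000933). Their adjacency was noticed after the values were seen.

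The genes that fell most were led by Speer4a and 2 trypsin genes. The 25 leading falls had log2 fold changes from -2.18 to -6.74, and 23 kept their call when any 1 sample was left out. Try5 (chromosome 6, 41311233 to 41316841), a trypsin gene, was 442, 538 and 467 FPKM in FAK KO samples and 4.73, 4.65 and 5.45 FPKM in FAK-WT. Try4, its neighbour, was 76.3, 87.2 and 83.7 FPKM in FAK KO samples and 2.34, 1.91 and 1.03 FPKM in FAK-WT, and Speer4a was 29.5, 22 and 28 FPKM in FAK KO samples and 0.195, 0.229 and 0.0544 FPKM in FAK-WT. Ces1d, a carboxylesterase, was 6.5, 5.61 and 6.38 FPKM in FAK KO samples and 0.151, 0.149 and 0.0159 FPKM in FAK-WT (log2 fold change -5.01, SE 0.30, adjusted p = 2.73e-05). Abat, the gene of GABA transaminase, was 6.4, 5.24 and 7.06 FPKM in FAK KO samples and 0.513, 0.394 and 0.185 FPKM in FAK-WT (log2 fold change -3.83, SE 0.27, adjusted p = 5.61e-05). Actr3b, a variant subunit of the actin-branching Arp2/3 complex, fell from 74.2 ± 2.36 FPKM to 5.29 ± 0.773 FPKM (SD, n = 3 each). Cck, encoding the peptide hormone cholecystokinin, was 24, 26.4 and 21.3 FPKM in FAK KO samples and 3.67, 2.72 and 5.3 FPKM in FAK-WT. Smarca1, a chromatin remodelling ATPase, fell by 2.26 and Tspan11, a tetraspanin, by 3.4 on the log2 scale. Other leading falls were Efcab4b (-3.36), Bcan (-2.49), Sycn (-2.39), Prss35 (-2.23), 4930486L24Rik (-2.18), the whey acidic protein family members Wfdc10 (-4.12) and Wfdc6a (-2.52), and the loci Gm14226, Gm15391, Gm11874 and Gm21655, besides Gcnt3, Cst8, Cst12, Serpinb11 and Gstm7 described further on. Gm11874 did not pass without the third FAK KO sample (adjusted p = 0.0614). Fragments of trypsin, Speer, carboxylesterase and Gm loci may be shared among near-identical copies, so that their values are uncertain.

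**Figure D1:**
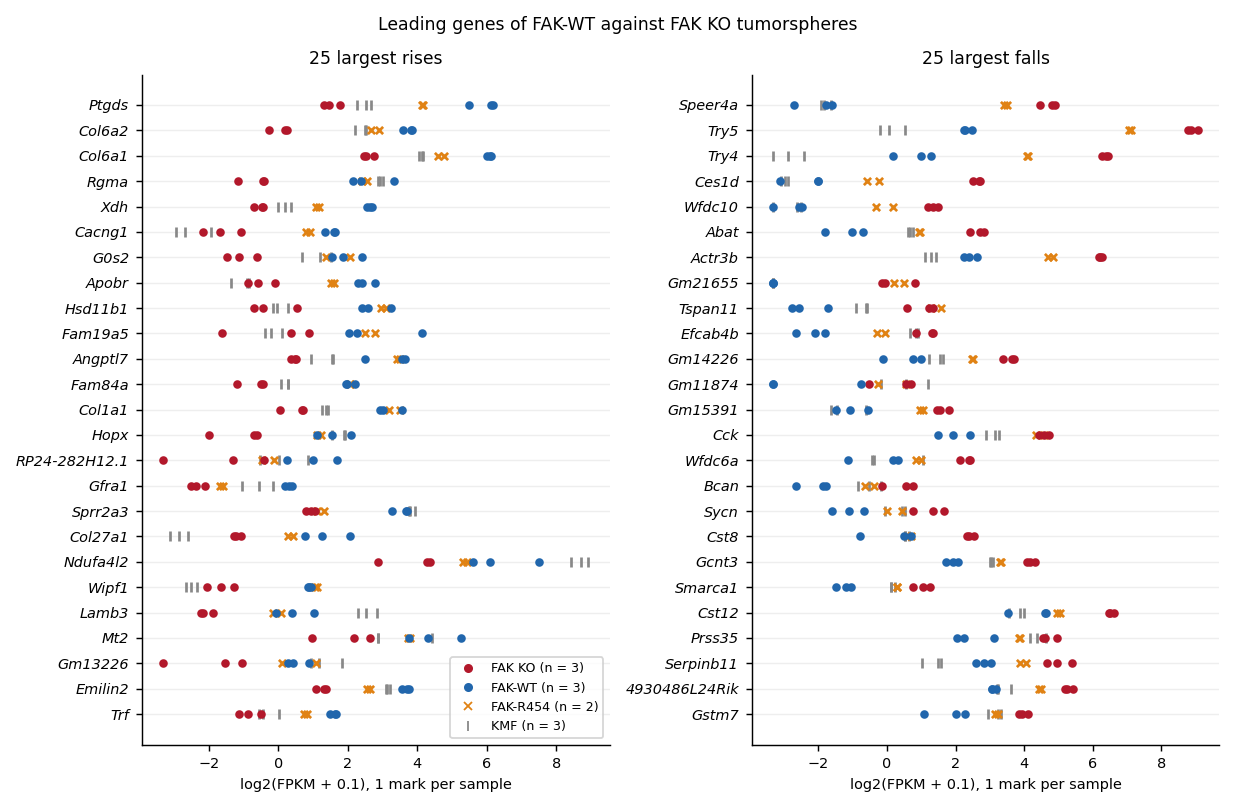
The 25 largest rises (left) and falls (right) between FAK KO and FAK-WT tumorspheres, with 1 mark per sample on a log2(FPKM + 0.1) axis and FAK-R454 and KMF samples for orientation. The genes were picked among those whose FAK KO and FAK-WT samples do not overlap, and their log2 fold changes reach 4.41 for the rises and -6.74 for the falls.

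Several collagen genes rose, Col6a2 and Col6a1 the most. Of 20 collagen genes tested, 9 were called higher (45%, against 2.91% of all genes) and 1 lower, with a median log2 fold change of 0.55 against -0.076 for all genes. Without the third samples 7 were called higher. The 3 chains of collagen VI, which form beaded filaments around cells, were all called. Col6a1 (chromosome 10, 76708792 to 76726168) was 5.39, 5.61 and 6.63 FPKM in FAK KO samples and 64.6, 69.5 and 68.8 FPKM in FAK-WT (log2 fold change 3.51, SE 0.09, adjusted p = 2.72e-07). Col6a2, its neighbour on chromosome 10, was 0.730, 1.09 and 1.03 FPKM in FAK KO samples and 14.3, 14.1 and 11.9 FPKM in FAK-WT (log2 fold change 3.7, SE 0.15, adjusted p = 3.70e-06). Col6a3, on chromosome 1, was 2.96, 3.47 and 3.47 FPKM in FAK KO samples and 7.92, 9.02 and 13.7 FPKM in FAK-WT (log2 fold change 1.56, SE 0.18, adjusted p = 0.000567). All 5 fibrillar collagen genes tested were also called. Col3a1 was 9.12, 6.16 and 6.68 FPKM in FAK KO samples and 33.4, 40 and 39.4 FPKM in FAK-WT, Col1a1 was 1.53, 1.51 and 0.928 FPKM in FAK KO samples and 7.57, 8.03 and 11.8 FPKM in FAK-WT and Col5a1 was 6.91, 7.19 and 4.91 FPKM in FAK KO samples and 14.5, 17.2 and 28.5 FPKM in FAK-WT. Col27a1 (2.57) and Col5a3 (2.37) rose from low levels, and Col5a3 was highest in the third FAK-WT sample, at 2.58 FPKM, and no longer passed the FPKM filter without it. The partner chain of Col1a1 in type I collagen, Col1a2, had no more than 0.0119 FPKM in any sample. In contrast, none of the 6 basement membrane collagen genes tested was called. Col15a1, the most abundant collagen, was 188, 206 and 191 FPKM in FAK KO samples and 205, 206 and 194 FPKM in FAK-WT and did not pass the test (log2 fold change 0.05, SE 0.06, adjusted p = 0.575), and Col22a1 fell by 1.11 (log2 fold change -0.93 and not called without the third samples).

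The promoters of the 2 neighbouring collagen VI genes are shown because these genes had the largest rises among the collagens. The windows run from 250 bases before to 50 bases after the start, from RefSeq on GRCm38.p6, both on the minus strand, at chr10:76725995-76726294 for Col6a1 and chr10:76623581-76623880 for Col6a2. Capitals mark matches, on either strand, to an AP-1 site (TGANTCA), a hypoxia response element core (ACGTG), a metal response element core (TGCACNC) or an antioxidant response element core (TGACNNNGC). A TGACNNNGC match can overlap an AP-1 match.

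Col6a1: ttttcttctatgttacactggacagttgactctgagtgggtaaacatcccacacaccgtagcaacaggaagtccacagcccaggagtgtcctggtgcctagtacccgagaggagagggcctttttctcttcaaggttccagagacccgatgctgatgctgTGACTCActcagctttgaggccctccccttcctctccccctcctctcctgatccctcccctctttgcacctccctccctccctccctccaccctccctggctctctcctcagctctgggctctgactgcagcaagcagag

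Col6a2: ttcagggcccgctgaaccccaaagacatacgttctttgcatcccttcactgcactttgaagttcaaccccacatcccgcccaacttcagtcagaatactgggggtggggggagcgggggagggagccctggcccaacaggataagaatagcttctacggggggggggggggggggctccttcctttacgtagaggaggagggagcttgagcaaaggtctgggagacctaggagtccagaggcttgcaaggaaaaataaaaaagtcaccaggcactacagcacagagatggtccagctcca

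The Col6a1 window holds 1 AP-1 match and the Col6a2 window none of the 4 motifs. AP-1 matches were found in 4.63% of 8614 promoters of tested genes, and in 7.46% of 201 promoters of genes called higher and 7.14% of 126 promoters of genes called lower. Over all 17666 matched promoters, of genes tested or not, the share was 7.12%, near that of both called groups.

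Of 23 genes of collagen modification, folding and cross-linking, 15 rose and 0 fell at any fold, where 15.6% and 25.2% of all genes did, with 9 rising without the third samples, 9 without the first FAK KO sample and 8 without the third FAK KO sample alone. Serpinh1, the collagen chaperone HSP47, was 198, 226 and 199 FPKM in FAK KO samples and 325, 323 and 330.5 FPKM in FAK-WT (log2 fold change 0.65, SE 0.07, adjusted p = 0.000416). Loxl1, a cross-linking lysyl oxidase, rose by 0.72, and Pcolce2, an enhancer of procollagen cleavage, by 1.3. Loxl2 was 6.87, 7.67 and 4.53 FPKM in FAK KO samples and 9.11, 11.3 and 28.9 FPKM in FAK-WT and was not called in 4 of the 6 fits that left out 1 sample, those without the third FAK-WT sample (log2 fold change 0.70) or without any 1 of the FAK KO samples. Of the fibronectin, fibulin and elastic fibre genes, 5 of 10 tested were called higher and none lower (2.91% higher and 1.71% lower over all genes). Fn1, the gene of fibronectin, was 60.7, 59.1 and 47.3 FPKM in FAK KO samples and 147, 158 and 270 FPKM in FAK-WT (log2 fold change 1.73, SE 0.21, adjusted p = 0.000677). Emilin2 was 2.02, 2.5 and 2.38 FPKM in FAK KO samples and 13.4, 12.9 and 11.8 FPKM in FAK-WT and Emilin1 2.93, 3.35 and 2.75 FPKM in FAK KO samples and 8.27, 8.13 and 8.82 FPKM in FAK-WT, and for both elastic fibre glycoproteins the samples of a line lay close together. Fbln2 rose by 1.43 and Fbln1 by 1.17. Fbln1 lies on chromosome 15 and its log2 fold change was 0.87 with centred chromosomes. Ltbp3, the most abundant of this list, was 241, 291 and 277 FPKM in FAK KO samples and 273, 284 and 329 FPKM in FAK-WT and did not pass.

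Matricellular proteins, which sit in the matrix and signal to cells, had 5 of 13 tested genes called higher and none lower (2.91% higher and 1.71% lower over all genes), and 3 called higher without the third FAK-WT sample or, as a separate setting, with centred chromosomes. Tnc, the gene of tenascin C, was 2.91, 2.32 and 2.48 FPKM in FAK KO samples and 6.5, 7.05 and 8.14 FPKM in FAK-WT (log2 fold change 1.46, SE 0.12, adjusted p = 0.000121). Thbs1, encoding thrombospondin 1, was 2.61, 2.85 and 2.59 FPKM in FAK KO samples and 5.61, 6.46 and 6.51 FPKM in FAK-WT (log2 fold change 1.18, SE 0.10, adjusted p = 0.000121). Ctgf and Matn2 were called with all samples, at 1.13 and 1.07, and were not called, at 0.87 and 0.88, without the third FAK-WT sample. Ctgf was also not called without the third FAK KO sample (0.93), nor Matn2 without the second FAK KO sample (0.97). Nov rose by 1.06. Nov and Matn2 lie on chromosome 15 and had log2 fold changes of 0.76 and 0.77 with centred chromosomes. Sparc, by far the most abundant member, was 863, 908 and 881 FPKM in FAK KO samples and 1038, 1055 and 974 FPKM in FAK-WT and rose by only 0.21. Among the small leucine-rich proteoglycans that bind collagen fibrils, Bgn (biglycan) was 53.2, 44.8 and 49.1 FPKM in FAK KO samples and 145, 145 and 132 FPKM in FAK-WT (log2 fold change 1.52, SE 0.08, adjusted p = 1.20e-05) and Prelp was 2.67, 3.11 and 2.5 FPKM in FAK KO samples and 8.49, 7.97 and 8.26 FPKM in FAK-WT (log2 fold change 1.55, SE 0.10, adjusted p = 3.52e-05). Dcn (decorin) was 122, 89.2 and 85.9 FPKM in FAK KO samples and 104, 109 and 125 FPKM in FAK-WT and did not pass. Has1, a hyaluronan synthase, was 3.88, 4.9 and 4.43 FPKM in FAK KO samples and 10.3, 10.2 and 12.6 FPKM in FAK-WT. The cell surface proteoglycans Sdc3 (1.39) and Gpc6 (1.13) were highest in the third FAK-WT sample, and their log2 fold changes were 0.92 and 0.71 without the third samples of both lines, with Gpc6 no longer past the test (adjusted p = 0.0793).

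**Figure D2:**
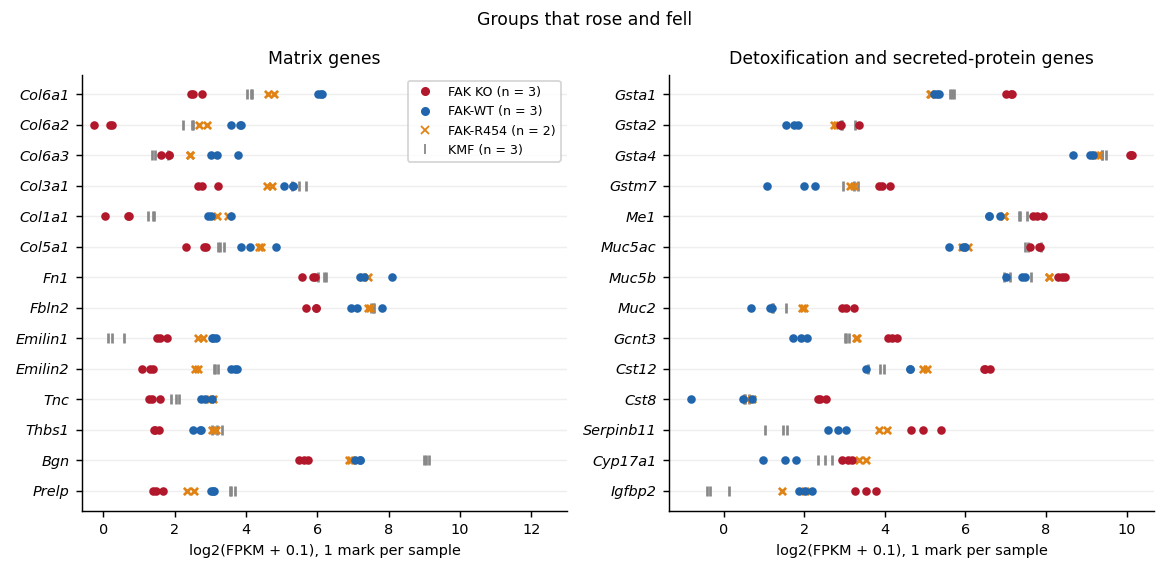
Matrix genes (left) and genes of detoxification and secreted proteins (right), 1 mark per sample on a log2(FPKM + 0.1) axis. The genes were picked among those that rose (left) or fell (right), so that the direction in each panel follows from the choice. FAK-WT samples lie to the right of FAK KO samples on the left and to the left on the right, without overlap, Gsta2 included (from 8.26 to 3.19 FPKM on average). Dcn and Ltbp3, which did not pass, and Gstt1 and Fth1, which rose, are among the genes not shown.

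Proteases and their inhibitors were mixed. Of 33 tested, 4 were called higher and 2 lower (2.91% higher and 1.71% lower over all genes). Mmp17 was 2.92, 3.71 and 3.2 FPKM in FAK KO samples and 8.83, 9.61 and 18.3 FPKM in FAK-WT and Mmp28 12.3, 15.1 and 13.6 FPKM in FAK KO samples and 27.5, 27.7 and 31.5 FPKM in FAK-WT, whereas Mmp14, the most abundant metalloproteinase, was 44.7, 49.3 and 47.2 FPKM in FAK KO samples and 49.6, 46.9 and 49.6 FPKM in FAK-WT and did not pass. Ctsh, the gene of cathepsin H, rose by 1.22. Timp3 rose by 1.03, and Timp4 fell by 1.17 and Adamts9 by 1.01. None of these 3 was called without the third FAK-WT sample, at 0.86, -0.90 and -0.97, nor were Timp4 and Adamts9 with centred chromosomes, at -0.98 and -0.81.

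Of 40 integrin and focal adhesion genes tested, 2 were called higher and 0 lower (2.91% higher and 1.71% lower over all genes), and the median log2 fold change was 0.02. At any fold 9 rose and 7 fell (15.6% rose and 25.2% fell over all genes). With centred chromosomes 6 rose and 1 fell, and without the first FAK KO sample 2 fell, with 3 falling without the third FAK KO, the first FAK-WT or the second FAK-WT sample. Itga10, the alpha chain of a collagen-binding integrin, was 3.8, 3.8 and 4.2 FPKM in FAK KO samples and 9.82, 9.34 and 9.5 FPKM in FAK-WT (log2 fold change 1.26, SE 0.08, adjusted p = 3.05e-05). Itga5, the alpha chain of the fibronectin receptor, was 30.5, 33.8 and 31.7 FPKM in FAK KO samples and 60.9, 62.1 and 69 FPKM in FAK-WT, just under the fold required (log2 fold change 1.00, SE 0.07, adjusted p = 6.22e-05), and it lies on chromosome 15 (log2 fold change 0.70 with centred chromosomes). Itga6 was 215, 194 and 210.4 FPKM in FAK KO samples and 189, 185 and 164 FPKM in FAK-WT and did not pass. Tln2, a talin that couples integrins to actin, rose by 1.09, and by 0.89 without the third FAK-WT sample, where 1 of the list was called higher. Paxillin (Pxn), at 75.4, 90.5 and 89.4 FPKM in FAK KO samples and 89.5, 88.4 and 86.9 FPKM in FAK-WT, did not pass.

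Transcripts of cell to cell contacts moved in both directions. Of 30 tested, 12 fell and 5 rose (15.6% rose and 25.2% fell over all genes), and the median was -0.18. Cdh2 (N-cadherin) was 27.1, 24.7 and 26.2 FPKM in FAK KO samples and 14.2, 14.2 and 14.9 FPKM in FAK-WT (log2 fold change -0.84, SE 0.06, adjusted p = 8.43e-05), F11r, a junctional adhesion molecule, was 139.6, 140.4 and 146 FPKM in FAK KO samples and 98.4, 101 and 93.5 FPKM in FAK-WT (log2 fold change -0.54, SE 0.06, adjusted p = 0.000434), and the desmosomal cadherin Dsg2 was 4.86, 4.44 and 5.25 FPKM in FAK KO samples and 2.74, 2.63 and 1.87 FPKM in FAK-WT (log2 fold change -0.99, SE 0.15, adjusted p = 0.00186). Cdh2 and Dsg2 lie on chromosome 18, whose genes were lower by 0.29 than the rest, and with centred chromosomes they were at -0.53 and -0.68. Without the third FAK KO sample 5 fell and 2 rose, and 2 rose without the first. Without the first or the second FAK-WT sample 3 rose. With centred chromosomes the list had 6 falling and 5 rising genes. In contrast, Vcam1 was 2.57, 1.9 and 2.37 FPKM in FAK KO samples and 6.92, 6.16 and 4.52 FPKM in FAK-WT (log2 fold change 1.32, SE 0.17, adjusted p = 0.000941).

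Actin and contractility genes had 21 rising and 10 falling members of 55 tested (15.6% rose and 25.2% fell over all genes). Smtn (smoothelin) was 23.6, 25.9 and 20.4 FPKM in FAK KO samples and 50.6, 50.8 and 62.8 FPKM in FAK-WT, Mylk, the myosin light chain kinase, was 1.72, 1.79 and 1.63 FPKM in FAK KO samples and 4.19, 4.53 and 3.06 FPKM in FAK-WT and Fscn1, the actin bundler fascin, was 3.48, 4.1 and 3.54 FPKM in FAK KO samples and 8.5, 8.3 and 9.97 FPKM in FAK-WT. In all 3 genes the groups did not overlap. Cdc42ep5, an effector of CDC42, was lower at 16.9, 21.8 and 20.8 FPKM in FAK KO samples and 8.01, 8 and 6.03 FPKM in FAK-WT (log2 fold change -1.43, SE 0.13, adjusted p = 0.000216). Of 23 genes listed as YAP and TAZ targets, 4 rose and 3 fell, beside 15.6% and 25.2% of all genes, and 6 fell without the third FAK-WT sample.

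Keratin genes rose. All 10 tested did so and 4 of them were called, against 15.6% rising and 2.91% called of all genes, a family that was taken up after its values were seen. The abundant simple-epithelial pair, Krt8 (289, 341 and 322 FPKM in FAK KO samples and 601, 602 and 503 FPKM in FAK-WT) and Krt18 (205, 240.2 and 208 FPKM in FAK KO samples and 409, 396 and 326 FPKM in FAK-WT), rose by 0.84 and 0.79. Krt19 rose by 0.37 and the basal keratin Krt14 was 11.2, 11.7 and 11.2 FPKM in FAK KO samples and 42.5, 49.8 and 67.6 FPKM in FAK-WT (log2 fold change 2.19, SE 0.15, adjusted p = 3.90e-05). Krt76 was 3.19, 2.69 and 3.24 FPKM in FAK KO samples and 10.1, 10.1 and 11 FPKM in FAK-WT, Krt16 rose by 1.77 and Krt6a by 1.78. Krt8, Krt18, Krt76 and Krt6a lie on chromosome 15. With centred chromosomes 9 of the 10 keratins rose, and Krt8 and Krt18 were at 0.54 and 0.49. The cornified envelope gene Sprr1a was 42.4, 53.5 and 38.3 FPKM in FAK KO samples and 79.2, 93.3 and 136 FPKM in FAK-WT, and not called without the third FAK-WT sample (log2 fold change 0.95). Of 8 mesenchymal markers tested, 5 rose and 1 fell, which was Cdh2 (15.6% rose and 25.2% fell over all genes). Without the third FAK-WT sample 5 rose and 2 fell, 1 of them called lower. Among those that rose were Pdgfra at 3.25, 2.65 and 3.18 FPKM in FAK KO samples and 11.7, 10.9 and 8.19 FPKM in FAK-WT (log2 fold change 1.72, SE 0.14, adjusted p = 0.000121), S100a4 at 31, 25.1 and 22.9 FPKM in FAK KO samples and 82.1, 76.7 and 97.6 FPKM in FAK-WT (log2 fold change 1.7, SE 0.13, adjusted p = 7.04e-05) and Vim at 932, 982 and 954 FPKM in FAK KO samples and 1099, 1121 and 1293 FPKM in FAK-WT. Klf5, a Krüppel-like factor of proliferating epithelia, rose by 1.6.

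**Figure D3:**
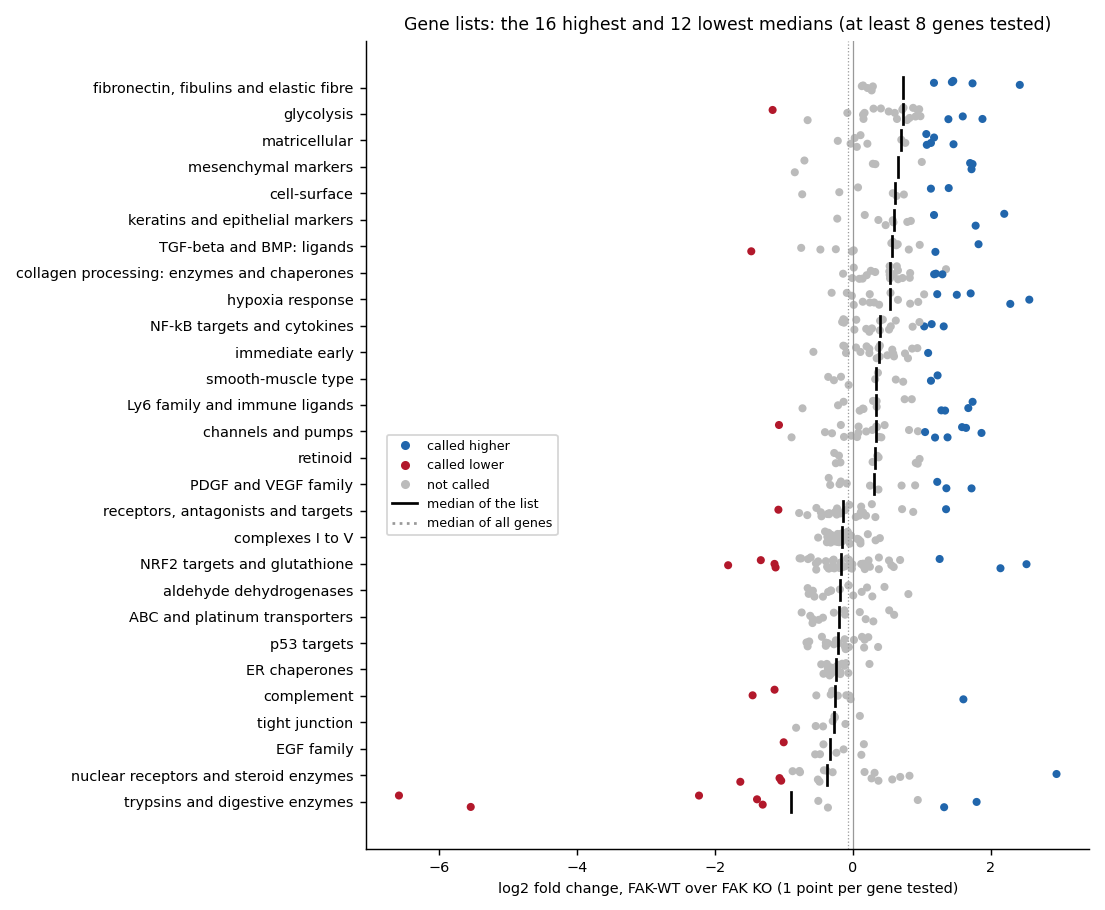
Log2 fold changes of FAK-WT over FAK KO tumorspheres for the lists with the 16 highest and 12 lowest medians, 1 point per gene and a bar for each list's median. Of the lists shown, those of elastic fibre, matricellular, collagen-processing, glycolysis and keratin genes have medians to the right of the dotted median of all genes, and those of digestive enzymes and of nuclear receptors and steroid enzymes to the left.

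Of 50 growth factor and receptor genes tested, 7 were called higher and 3 lower, and of 40 TGF-beta and BMP genes 3 higher and 2 lower (2.91% higher and 1.71% lower over all genes). At any fold 11 of the latter rose and 13 fell (15.6% rose and 25.2% fell over all genes). The EGF family had 4 falling and no rising genes of 8 tested. Centred chromosomes gave 15 rising and 8 falling TGF-beta and BMP genes, and 1 rising and 4 falling EGF family genes. Ngfr, the low-affinity neurotrophin receptor, was 1.45, 1.9 and 2.64 FPKM in FAK KO samples and 9.22, 9.42 and 6.87 FPKM in FAK-WT (log2 fold change 2.06, SE 0.21, adjusted p = 0.000289). Flt1, a receptor for VEGF, was 4.45, 4.29 and 3.98 FPKM in FAK KO samples and 9.91, 10.2 and 13.2 FPKM in FAK-WT (log2 fold change 1.35, SE 0.12, adjusted p = 0.000145), and Fgfr2 was 0.592, 0.407 and 0.589 FPKM in FAK KO samples and 2.1, 1.62 and 1.35 FPKM in FAK-WT (log2 fold change 1.5, SE 0.22, adjusted p = 0.00174). Notch3 was 0.805, 0.806 and 0.822 FPKM in FAK KO samples and 3.62, 4.07 and 6.38 FPKM in FAK-WT and its ligand gene Jag2 1.4, 1.8 and 1.71 FPKM in FAK KO samples and 6.78, 7.4 and 9.27 FPKM in FAK-WT, so that a receptor and a ligand of the Notch pathway both rose. The other 9 Notch genes tested were not called. In the Hedgehog pathway Gas1, a co-receptor, was 15.2, 17.3 and 17.8 FPKM in FAK KO samples and 44.2, 45.9 and 64.6 FPKM in FAK-WT (log2 fold change 1.6, SE 0.14, adjusted p = 0.000153) and Ihh, a ligand, rose by 1.22 (by 0.85, and not called, without the third FAK-WT sample). Among BMP genes Bmp7 was 0.453, 0.355 and 0.642 FPKM in FAK KO samples and 1.89, 2.11 and 1.77 FPKM in FAK-WT and Bmp6 rose by 1.2, whereas Gdf6 was 12.5, 15.5 and 14.5 FPKM in FAK KO samples and 4.34, 4.62 and 6.27 FPKM in FAK-WT and Bambi, a decoy receptor on chromosome 18, fell by 1.08 and was not called with centred chromosomes (-0.76) or without the second FAK-WT sample (-0.96). Tgfbr3, the TGF-beta co-receptor betaglycan, was 4.09, 4 and 4.11 FPKM in FAK KO samples and 9.73, 10.3 and 11.6 FPKM in FAK-WT (log2 fold change 1.35, SE 0.09, adjusted p = 3.44e-05). Ephb4 (1.38), Sema6b (1.9) and Plxnb3 (1.07) rose and Sema7a fell by 1.42 among the guidance receptors and ligands, of which 20 of 45 tested rose and 5 fell (15.6% rose and 25.2% fell over all genes). Growth factor genes that fell were Fgf13 (3.47, 3.65 and 3.85 FPKM in FAK KO samples and 1.56, 1.58 and 1.5 FPKM in FAK-WT), Igfbp2, which binds insulin-like growth factors (9.48, 13.7 and 11.5 FPKM in FAK KO samples and 4.51, 3.96 and 3.56 FPKM in FAK-WT), and the EGF receptor ligand Btc (22.9, 18.4 and 19.2 FPKM in FAK KO samples and 9.68, 9.34 and 10.9 FPKM in FAK-WT). Btc was not called in 3 of the 6 fits that left out 1 sample, nor with centred chromosomes (-0.89). Of 22 immediate early genes, which respond within minutes to growth signals, 13 rose and 1 fell at any fold (15.6% rose and 25.2% fell over all genes). Without the first FAK KO sample 7 rose, without the third FAK KO or the second FAK-WT sample 8, and 7 without the third samples of both lines. Ier3 was 208, 229 and 194 FPKM in FAK KO samples and 350.2, 348 and 328 FPKM in FAK-WT (log2 fold change 0.70, SE 0.08, adjusted p = 0.000421).

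Glycolysis and hypoxia-response genes had medians above 0, with a wide spread between samples. Col6a1, Emilin1 and Bgn did not show this spread, whereas other matrix genes did: Fn1, Col5a1, Col1a1 and Loxl2 were also lowest in the third FAK KO and highest in the third FAK-WT sample, and the median log2 level of the fibrillar collagens relative to the FAK KO mean was -0.34 in the third FAK KO sample and 1.97, 2.46 and 3.09 in FAK-WT samples. Glycolysis turns glucose into pyruvate and lactate, and many of its genes, as well as Vegfa and Ndrg1, are induced by the hypoxia-inducible factors when oxygen is low. Of 42 such genes tested, 8 were called higher and 1 lower (2.91% higher and 1.71% lower over all genes), with a median of 0.65. Without the third FAK-WT sample 6 were called higher, without the first 16, without the second 12, and without the third samples of both lines 4. Ndufa4l2, encoding a mitochondrial subunit induced by hypoxia, was 20.7, 19.4 and 7.26 FPKM in FAK KO samples and 49, 68.1 and 181 FPKM in FAK-WT. The third FAK-WT sample was the highest of all and the third FAK KO sample the lowest. Slc16a3, the lactate exporter MCT4, was 3.98, 3.44 and 1.85 FPKM in FAK KO samples and 7.57, 8.94 and 20 FPKM in FAK-WT, and Ndrg1 was 10.9, 15 and 7.08 FPKM in FAK KO samples and 33.8, 40.2 and 100.2 FPKM in FAK-WT. Pgk1 was 367 ± 76.4 FPKM in FAK KO samples and 719.8 ± 376 FPKM in FAK-WT (SD, n = 3) and did not pass (log2 fold change 0.87, SE 0.31, adjusted p = 0.0521). Ldha was 423, 407 and 332 FPKM in FAK KO samples and 586, 645 and 1114 FPKM in FAK-WT and Vegfa 41, 43.6 and 31.5 FPKM in FAK KO samples and 61.1, 74.8 and 157 FPKM in FAK-WT. Egln3, a prolyl hydroxylase that marks these factors for degradation, was 59.5, 61.4 and 39.5 FPKM in FAK KO samples and 50.1, 60 and 106 FPKM in FAK-WT, with overlapping groups. Median log2 fold changes of the glycolysis list in single samples, relative to the FAK KO mean, were 0.33, 0.54 and 1.28 in FAK-WT samples and -0.18 in the third FAK KO sample. For the hypoxia response they were 0.21, 0.22 and 1.23, and -0.25. The medians over genes without the third samples were 0.31 and 0.15, compared with 0.72 and 0.54 with all samples. Slc16a3, Ndrg1 and Ndufa4l2 kept their call without the third samples, at 1.13, 1.52 and 1.52. Without the third FAK-WT sample alone, Pfkp (0.80) and Vegfa (0.82) were not called. Aldoc did not pass without the third FAK KO sample (adjusted p = 0.0629), nor Ankrd37 without the first FAK KO sample (adjusted p = 0.0558). The glycolysis list had 3 genes called higher with all samples and 1 without the third FAK KO sample. The hypoxia-response list had 5, and 3 without the first FAK KO sample. Without the third samples, Aldoc, Pfkp, Vegfa and Ankrd37 were at 0.80, 0.59, 0.68 and 0.98 and were not called. Ldhb, the heart-type lactate dehydrogenase, was 130.4, 139.7 and 136 FPKM in FAK KO samples and 73.9, 66.8 and 44.5 FPKM in FAK-WT (log2 fold change -1.16, SE 0.16, adjusted p = 0.00129), and was not called without the third FAK-WT sample (-0.94) or with centred chromosomes (-0.97). What sets these samples apart was not tested.

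The metallothioneins, small cysteine-rich proteins that bind zinc and copper, had the same lowest and highest samples. Mt1 (chromosome 8, 94179089 to 94180325) was 28.8, 36.7 and 18.3 FPKM in FAK KO samples and 75.5, 100.1 and 219.9 FPKM in FAK-WT (log2 fold change 2.14, SE 0.38, adjusted p = 0.00364) and Mt2 (chromosome 8, 94172618 to 94173567) was 4.42, 6.07 and 1.86 FPKM in FAK KO samples and 13.5, 19.7 and 37.9 FPKM in FAK-WT (log2 fold change 2.52, SE 0.45, adjusted p = 0.00395). Both were lowest in the third FAK KO and highest in the third FAK-WT sample. Without these samples their log2 fold changes were 1.42 and 1.64. The promoters of these neighbours and of Slc16a3 are shown as examples of genes with this lowest and highest sample, picked after their values were seen. Other genes, among them Ndufa4l2, Ndrg1, Ldha and Vegfa, had the same lowest and highest sample. The 3 promoters shown lie on the plus strand at chr8:94178839-94179138, chr8:94172368-94172667 and chr11:120948817-120949116, with the same marks as above.

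Mt1: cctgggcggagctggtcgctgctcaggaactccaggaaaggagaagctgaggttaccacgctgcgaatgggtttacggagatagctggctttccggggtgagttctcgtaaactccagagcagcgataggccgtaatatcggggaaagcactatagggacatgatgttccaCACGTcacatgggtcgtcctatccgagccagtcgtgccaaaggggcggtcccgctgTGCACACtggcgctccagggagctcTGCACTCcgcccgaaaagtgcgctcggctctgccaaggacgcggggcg

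Mt2: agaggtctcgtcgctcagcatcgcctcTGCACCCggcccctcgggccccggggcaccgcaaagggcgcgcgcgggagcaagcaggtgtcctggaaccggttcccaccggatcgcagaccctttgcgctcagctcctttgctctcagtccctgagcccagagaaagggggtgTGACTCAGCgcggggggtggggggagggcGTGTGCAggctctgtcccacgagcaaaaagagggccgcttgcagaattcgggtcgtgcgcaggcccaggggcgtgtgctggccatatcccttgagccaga

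Slc16a3: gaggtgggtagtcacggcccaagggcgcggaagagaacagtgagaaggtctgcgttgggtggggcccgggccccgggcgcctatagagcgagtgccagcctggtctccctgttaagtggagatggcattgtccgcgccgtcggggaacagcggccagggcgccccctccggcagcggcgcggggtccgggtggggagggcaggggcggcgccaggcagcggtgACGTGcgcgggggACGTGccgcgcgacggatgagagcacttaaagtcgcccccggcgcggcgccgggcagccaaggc

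The metal response element core was matched 2 times in the Mt1 and 2 times in the Mt2 window, against 12.6% of promoters of tested genes with any match. The Mt2 window also holds 1 AP-1 match, which the 1 antioxidant response element match overlaps. The hypoxia response element core was matched 1 time in Mt1 and 2 times in Slc16a3. It was found in 10 of 14 promoters of the hypoxia-response list and 10 of 22 of the glycolysis list. These are 71.4% and 45.5%, beside 26.2% of all tested genes and 18.9% of those called higher.

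**Figure D4:**
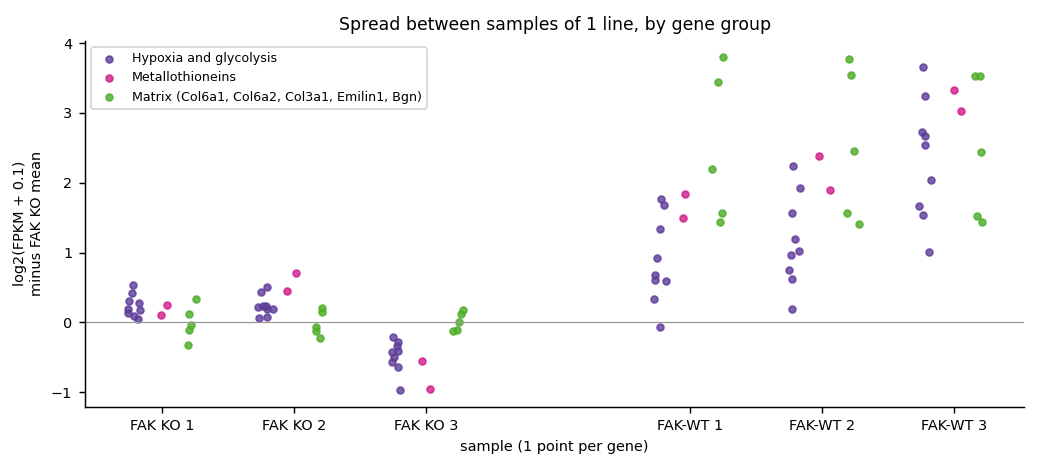
Each sample's log2(FPKM + 0.1) relative to the FAK KO mean for 9 hypoxia and glycolysis genes, the 2 metallothioneins and 5 matrix genes, 1 point per gene. Points of each of these 5 matrix genes, picked for their even levels, stay at similar heights in the 3 FAK-WT samples, whereas those of the hypoxia and glycolysis genes and metallothioneins are highest in FAK-WT 3 and lowest in FAK KO 3, as for Ndufa4l2 (7.26 and 181 FPKM).

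Several glutathione S-transferase genes, whose enzymes conjugate glutathione to toxic compounds, fell in FAK-WT tumorspheres. Of 16 members tested, 9 fell and 2 rose at any fold (15.6% rose and 25.2% fell over all genes), and 5 were called lower and 1 higher, against 1.71% and 2.91% of all genes, a family grouped by symbol after its values were seen. Gsta4, which conjugates lipid peroxidation products, was 1081, 1129.9 and 1104 FPKM in FAK KO samples and 572, 547 and 405 FPKM in FAK-WT (log2 fold change -1.14, SE 0.13, adjusted p = 0.000434). Gsta1 was 139, 129 and 143 FPKM in FAK KO samples and 40.8, 37 and 39.4 FPKM in FAK-WT (log2 fold change -1.81, SE 0.07, adjusted p = 2.99e-06) and Gsta2 10.1, 7.27 and 7.39 FPKM in FAK KO samples and 3.24, 3.51 and 2.82 FPKM in FAK-WT. These 3 genes lie within 164 kb on chromosome 9. Gstm7 was 15.1, 14.3 and 17.3 FPKM in FAK KO samples and 4.72, 3.92 and 2.01 FPKM in FAK-WT, and Gstt1 rose, from 0.782, 0.833 and 0.711 to 2.15, 2.43 and 1.5 FPKM. The call of Gsta4 was lost without the third FAK-WT sample, at -0.98, and 3 of the family were then called lower. Members with near-identical sequence can share fragments. The antioxidant response element core was matched in 2 of 15 promoters of this family (13.3%), beside 15% of all tested genes and 9.52% of those called lower. Me1, the cytosolic malic enzyme that supplies NADPH, was 242, 205 and 219 FPKM in FAK KO samples and 95.8, 96 and 115 FPKM in FAK-WT (log2 fold change -1.12, SE 0.09, adjusted p = 0.000126). In the wider list of NRF2 targets and glutathione genes 19 of 44 fell and 10 rose at any fold (15.6% rose and 25.2% fell over all genes), and with centred chromosomes 11 fell and 12 rose. Without the third FAK KO sample 6 rose. Among the risers was Fth1, the ferritin heavy chain, at 2861, 2856 and 2731 FPKM in FAK KO samples and 3880.1, 3843 and 3271 FPKM in FAK-WT.

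Secreted mucins fell, and so did several cystatin and serpin genes, families chosen after their values were seen. The 3 mucin genes tested were all called lower, beside 1.71% of all genes. Muc5ac was 195, 226 and 229 FPKM in FAK KO samples and 63.2, 61.8 and 48.6 FPKM in FAK-WT (log2 fold change -1.91, SE 0.11, adjusted p = 2.32e-05), Muc5b was 313, 355 and 338 FPKM in FAK KO samples and 178, 168 and 128 FPKM in FAK-WT (log2 fold change -1.1, SE 0.12, adjusted p = 0.00042) and Muc2 was 7.55, 8.11 and 9.29 FPKM in FAK KO samples and 2.11, 2.22 and 1.5 FPKM in FAK-WT (log2 fold change -2.06, SE 0.15, adjusted p = 7.08e-05). They are neighbours on chromosome 7, between 141690340 and 141873084, and were grouped after their values were seen. Without the third FAK-WT sample Muc5b was at -0.95 and was not called. Gcnt3, which builds mucin-type O-glycans, was 19.8, 16.7 and 18 FPKM in FAK KO samples and 4.12, 3.67 and 3.18 FPKM in FAK-WT (log2 fold change -2.29, SE 0.11, adjusted p = 8.10e-06). Cst12 and Cst8, cystatin-type genes in a cluster on chromosome 2, were 97.5, 88.5 and 89.7 FPKM in FAK KO samples and 24.8, 24.5 and 11.4 FPKM in FAK-WT, and 5.74, 5.15 and 4.98 FPKM in FAK KO samples and 1.54, 1.3 and 0.475 FPKM in FAK-WT, respectively. Serpinb11 was 42.1, 30.8 and 25.1 FPKM in FAK KO samples and 5.9, 7.04 and 8.07 FPKM in FAK-WT, and of 9 clade B serpins tested 7 fell and none rose (15.6% rose and 25.2% fell over all genes). The abundant Cst3 (cystatin C) was 356, 371 and 352 FPKM in FAK KO samples and 324, 316 and 302 FPKM in FAK-WT and fell by 0.20.

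Several genes of steroid synthesis, which ovarian stromal and granulosa cells use, fell as well. Cyp17a1, the enzyme that opens the way to androgens, was 8.38, 7.56 and 8.98 FPKM in FAK KO samples and 3.4, 2.79 and 1.86 FPKM in FAK-WT (log2 fold change -1.63, SE 0.19, adjusted p = 0.000567). Star, which brings cholesterol into mitochondria, was 46.4, 44.5 and 40.1 FPKM in FAK KO samples and 22.6, 24.3 and 30.4 FPKM in FAK-WT (log2 fold change -0.77, SE 0.11, adjusted p = 0.00149), and Nr5a1, the transcription factor SF-1, was 43.4, 47.5 and 44.5 FPKM in FAK KO samples and 31.4, 31.8 and 32 FPKM in FAK-WT (log2 fold change -0.51, SE 0.06, adjusted p = 0.000585). Cyp1a1, a target of the aryl hydrocarbon receptor, fell by 1.06 and was not called without the first FAK-WT sample (-0.92) or with centred chromosomes (-0.95). In the list of nuclear receptors and steroid enzymes 10 of 19 fell and 6 rose (15.6% rose and 25.2% fell over all genes). Without the third FAK KO or the second FAK-WT sample 3 rose. Its genes called lower numbered 3, and 1 with centred chromosomes or with median-of-ratios scaling. Hsd11b1, named above, was its only called riser.

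Speer4a and Actr3b, and likewise the trypsin genes, lie near each other on the chromosome. From Actr3b to Dpp6 on chromosome 5 (25759997 to 27727505), 14 genes reached 0.2 FPKM in any of the 6 samples, most of them in FAK KO samples only, so that a lower level in FAK-WT follows from how they were admitted. Actr3b and Speer4a held most of the fragments. The summed fragments of the 14 genes were 7020, 5272 and 6221 in FAK KO and 338, 258 and 261 in FAK-WT samples. Gm21655 had 0 fragments in every FAK-WT sample. Xrcc2, the gene just before this stretch, was at 4.99 FPKM in FAK KO samples and 4.92 FPKM in FAK-WT (log2 fold change -0.02). The same genes had 2436 and 2720 fragments in FAK-R454 samples, 153, 132 and 152 in KMF samples, and 252, 228 and 212 in beta-catenin ΔGSK samples. FAK KO had more fragments than each of the other 4 lines, among them KMF, from which the clone was derived, and beta-catenin ΔGSK, which was not given FAK. Actr3b and Speer4a, picked as leading falls, also reached 0.2 FPKM in at least 1 FAK-WT sample. Actr3b averaged 74.2 FPKM in FAK KO, 27.4 in FAK-R454, 5.29 in FAK-WT, 4.65 in beta-catenin ΔGSK and 2.33 in KMF. The other genes, mostly admitted through FAK KO samples alone, favour such an order. The cause of the order was not tested. From Try4 to Gm10334 on chromosome 6 (41302269 to 41446097), 6 trypsin-type genes had 12550, 13097 and 12401 fragments in FAK KO and 170, 144 and 163 in FAK-WT samples. FAK-R454 samples had 3456 and 3819, KMF samples 21, 21 and 39, and beta-catenin ΔGSK samples 0, 0 and 0. Try4 and Try5 held most of the fragments. In the other genes of this stretch only FAK KO, of the 6 samples, reached 0.2 FPKM, a choice that favours lower counts elsewhere. Past Gm10334, Trbc2 was also lower, at 1.27 FPKM in FAK KO samples and 0.378 FPKM in FAK-WT (log2 fold change -1.58, limma adjusted p = 0.00653), and Trbc1 had at most 5 fragments in any sample of either line. Ephb6, further along, was at 99.8 FPKM in FAK KO samples and 110.4 FPKM in FAK-WT and did not pass. Of the acinar cell genes, Cpa1 and Ctrb1 did not exceed 0.150 FPKM and Amy2a5 had 0 fragments in all 6 samples. The other 2 of the 5 listed acinar genes were expressed, Cela1 at 17.1, 17.9 and 14.1 FPKM in FAK KO samples and 38.6, 42.3 and 42.1 FPKM in FAK-WT (log2 fold change 1.32, SE 0.09, adjusted p = 6.22e-05) and another that fell by less than the fold required, and the list summed to 19 to 22.5 FPKM in FAK KO samples and 42.4 to 45.6 FPKM in FAK-WT. Both stretches were chosen after their values were seen, and many of their genes are near-identical copies between which fragments can be shared.

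**Figure D5:**
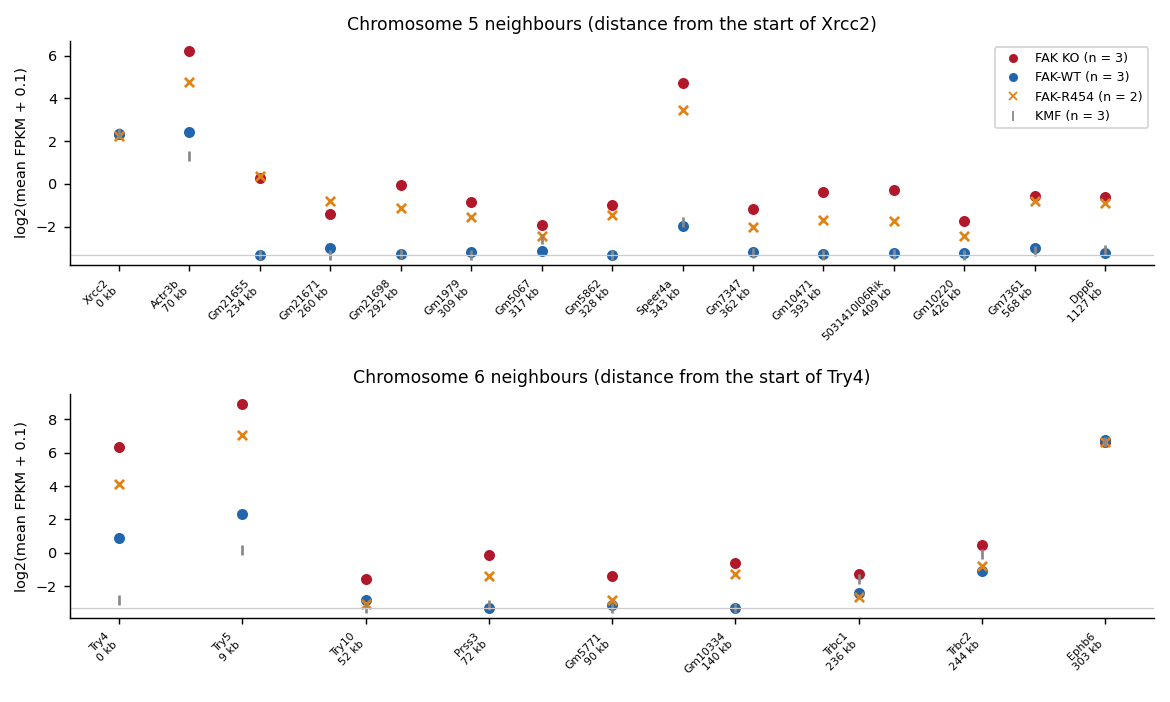
Mean expression, as log2(mean FPKM + 0.1), of the genes along the 2 stretches on chromosomes 5 and 6, in order of their distance from the first gene. From Actr3b to Dpp6 and from Try4 to Gm10334, where most genes shown reached 0.2 FPKM in FAK KO samples only, FAK KO points lie above FAK-WT points, whereas Xrcc2 and Ephb6 are level, Xrcc2 at 4.99 and 4.92 FPKM.

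Lists of housekeeping and stress genes were counted at any fold. Of 19 chaperones of the endoplasmic reticulum, 12 fell and 1 rose, none of them called, and 2 fell without the third samples, 4 without the third FAK KO sample alone and 6 without the second FAK-WT sample. Hspa5 (BiP) was 366, 343 and 354 FPKM in FAK KO samples and 307, 290.3 and 255 FPKM in FAK-WT (log2 fold change -0.32, SE 0.08, adjusted p = 0.0155). Of 40 genes of oxidative phosphorylation 10 fell, 2 rose and none was called, the falling share being near that of all genes, with 6 falling without the first or the third FAK KO sample. Of 17 aldehyde dehydrogenases 8 fell and 3 rose, and of 14 drug and platinum transporters 7 fell and 3 rose, with no calls in either. Of 21 p53 targets 9 fell and 1 rose. Of 35 ribosomal protein genes 13 rose and none fell, at a median of 0.19, but 3 rose without the third FAK KO sample, and 6, 4 and 24 without the first, the second and the third FAK-WT sample. These shares are to be read beside the 15.6% of all genes that rose and 25.2% that fell. With centred chromosomes 1 ER chaperone gene, 3 oxidative phosphorylation genes, 5 aldehyde dehydrogenases and 6 p53 targets fell, and 14 ribosomal protein genes rose.

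Direct comparisons set the leading changes beside FAK-R454, which carries the kinase-inactive form, and beside the parental cells. FAK-R454 (n = 2) and FAK-WT are separate lines, so that kinase activity and other differences between the lines cannot be told apart. Try5, for example, averaged 135 FPKM in FAK-R454 and 4.94 in FAK-WT, but also 482 in FAK KO and 0 in beta-catenin ΔGSK. The comparisons share the FAK-WT samples with the comparison above, and the genes given here were picked after their values were seen. FAK-WT against FAK-R454 gave 82 higher (0.696% of genes tested) and 88 lower genes (0.747%), and FAK-WT against KMF 452 higher (3.82%) and 250 lower (2.11%). Col6a1 was 27.3 and 24.3 FPKM in FAK-R454 samples, and FAK-WT was higher by 1.39 on the log2 scale (limma, SE 0.07, adjusted p = 0.00128). Xdh exceeded its FAK-R454 level in FAK-WT samples by 1.5 (SE 0.09, adjusted p = 0.00195), and Sprr2a3 by 2.36 (SE 0.15, adjusted p = 0.0024). Bmp7, at 0.343 and 0.387 FPKM in FAK-R454 samples, and Fgfr2, at 0.439 and 0.392 FPKM, exceeded these levels in FAK-WT by 2.12 (SE 0.16, adjusted p = 0.00357) and 1.78 (SE 0.22, adjusted p = 0.0124). Col1a1 was 9.04 and 11.2 FPKM in FAK-R454 samples, and its difference from FAK-WT was -0.17 (SE 0.20, adjusted p = 0.63). Fn1 (0.18, SE 0.26, adjusted p = 0.681) and Gsta1 (0.15, SE 0.06, adjusted p = 0.149) also did not pass between FAK-WT and FAK-R454, so that a difference was not shown for them. Against KMF cells, Col6a1 was higher in FAK-WT by 1.97 (SE 0.06) and Ptgds by 3.44 (SE 0.19), both past the test. Bgn, at 525, 509 and 557 FPKM in KMF samples, and Ndufa4l2, at 419.7, 341 and 486 FPKM, were lower in FAK-WT than in KMF cells, with log2 differences of -1.91 and -2.28. For Krt14, Tgfbr3 and Col3a1 the differences between FAK-WT and KMF were -0.02 (SE 0.17), -0.01 (SE 0.09) and -0.25 (SE 0.11), none past the test.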

How the data were processed

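RNA of 14 tumorsphere samples was sequenced from poly(A) libraries with 150 bp paired-end reads. The deposited table holds FPKM values per gene, made by the authors' sequencing service. The methods name TopHat2, and the submitters' processing notes list STAR 2.5, CASAVA 1.8, mm10 and DESeq2. Strand use in counting is not given in the sources used here, so that overlapping and antisense genes cannot be told apart. Multiplied back to fragments, 100% of values were whole within 0.0100, at 26075863 to 31410807 fragments per library. Genes with a mean FPKM above 1 in FAK KO or FAK-WT were compared with limma 3.58.1 (R 4.3.3, variance trend, Benjamini-Hochberg adjustment) on log2(FPKM + 0.1), and fold changes on this scale understate changes of low genes. A gene was called at an adjusted p under 0.05 with a log2 fold change of at least 1. The test was checked on simulated data with the same dispersion for all genes, no sample set apart and no shift of a chromosome. That check does not cover the spread of the third samples.

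The comparison and all gene lists were chosen with earlier results of these data known. Genes were named by rule: Ptk2 and Ptk2b, the 25 largest rises and falls among called genes with non-overlapping samples, and for each list the 4 largest called changes, the defining members and the most abundant member, from which the text takes its examples. Krt8, Krt18, Krt16, Krt76, Itga5, Pgk1, Ldha, Egln3, Serpinh1, Dsg2, Cdh2, Col5a1, Nov, Fbln1, Loxl1, Star, Nr5a1 and the families by symbol were chosen after their values were seen. Promoters came from RefSeq (GRCm38.p6) and matched 8614 tested genes. Alternatives were other filters, pseudocounts, scalings, fold thresholds, a count-type fit and leaving out samples.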

Additional observations from a re-analysis of the deposited data

How the results depend on the processing

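The genes called numbered 344 higher and 203 lower. A filter at a mean FPKM above 5 gave 151 and 98, a pseudocount of 1 gave 174 and 99, a log2 fold threshold of 0.5 gave 935 and 1010, and one of 2 gave 53 and 35. The settings with smaller effects were no FPKM filter, no variance trend, 1 fit of all 5 lines, limma-voom on recovered fragments (361 and 222), median-of-ratios scaling and centred chromosomes (387 and 153). Leaving out 1 sample gave 317 (without FAK-WT 3) to 385 called higher (without FAK-WT 1), and 179 to 228 called lower. At any fold the genes higher numbered 1851, 1191 (without FAK KO 3) to 1981 with 1 sample left out, and the genes lower 2986, 1536 (without FAK KO 3) to 3248, with 1854 without FAK-WT 2. Centred chromosomes gave 1659 genes lower at any fold, and leaving out the third sample of both lines, added after seeing the data, gave 1371 higher and 1392 lower. The cause of these differences was not tested, beyond the fewer samples or genes in each. The sign changed, with no call in either direction, for the following genes. Ptk2b was at -0.11 to 0.062 with 1 sample left out, 0.063 with chromosomes centred, 0.025 with median-of-ratios scaling and 0.056 without the third samples. Pxn was at -0.027 to 0.104 with 1 sample left out. Ephb6 was at -0.052 to 0.247 with 1 sample left out, -0.048 without the third samples.

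Same-numbered FAK-WT and FAK KO samples did not deviate together (correlations of deviations from the line means across genes from -0.21 to -0.05). With 3 samples of each line, this cannot exclude that samples of the same number were handled together. With the replicate block the calls numbered 346 higher and 206 lower, and 343 and 202 of these genes had been called without it. No sample of either line correlated best with the sample of its own number in the other line. Low counts limit genes under a few FPKM, and 1 sample set apart in each line limits the small changes and also some larger, called ones. The log2 fold change of Ndufa4l2, for example, was 2.56 with all samples and 1.52 without the third samples.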

Other observations

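Genes of innate immunity were not described above. Of 76 tested, 10 were called higher and 2 lower, where 2.91% and 1.71% of all genes were. Among interferon-stimulated genes Ifit3 was 0.818, 0.901 and 1.04 FPKM in FAK KO samples and 2.13, 3.48 and 1.82 FPKM in FAK-WT (log2 fold change 1.29, SE 0.23, adjusted p = 0.00395). Among chemokines Cxcl5, which attracts neutrophils, was 0.281, 0.209 and 0.345 FPKM in FAK KO samples and 1.74, 1.53 and 1.06 FPKM in FAK-WT (log2 fold change 2.02, SE 0.26, adjusted p = 0.000921), and the chemokine receptor gene Cxcr4 was 1.49, 1.68 and 1.13 FPKM in FAK KO samples and 5, 4.6 and 4.9 FPKM in FAK-WT. Of 20 targets of NF-kB and cytokines, 12 rose and none fell (15.6% rose and 25.2% fell over all genes). In the complement list 5 of 10 fell (3 with centred chromosomes), among them Cd59a, an inhibitor of the membrane attack complex, at 3.97, 3.31 and 3.84 FPKM in FAK KO samples and 1.69, 1.44 and 0.864 FPKM in FAK-WT (log2 fold change -1.45, SE 0.22, adjusted p = 0.00179), whereas C3, the central component, was 101, 109 and 95.2 FPKM in FAK KO samples and 321, 324 and 281 FPKM in FAK-WT (log2 fold change 1.6, SE 0.08, adjusted p = 1.15e-05).

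Of 15 genes of the Ly6 family and of surface ligands of immune cells, 4 were called higher (2.91% over all genes). Ly6a (Sca-1) was 8.87, 8.63 and 7.22 FPKM in FAK KO samples and 19, 19.4 and 24.6 FPKM in FAK-WT (log2 fold change 1.34, SE 0.12, adjusted p = 0.00017), Ly6c1 was 0.512, 1.05 and 1.06 FPKM in FAK KO samples and 3.14, 3.22 and 2.68 FPKM in FAK-WT and Psca was 0.309, 0.178 and 0.374 FPKM in FAK KO samples and 1.01, 1.43 and 0.925 FPKM in FAK-WT. All 3 lie on chromosome 15, and their log2 fold changes were 1.04, 1.43 and 1.37 with centred chromosomes. Members of this family are similar in sequence and can share fragments.

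Of 25 genes of channels and pumps tested, 6 were called higher and 1 lower (2.91% higher and 1.71% lower over all genes). The water channel genes Aqp1 (1.29, 1.45 and 1.54 FPKM in FAK KO samples and 4.44, 4.17 and 5.38 FPKM in FAK-WT) and Aqp5 (72.6, 83.8 and 77.2 FPKM in FAK KO samples and 214, 214 and 178 FPKM in FAK-WT) rose by 1.64 and 1.37, and Trpv4, a calcium channel that responds to stretch and osmolarity, was 1.91, 1.89 and 2.21 FPKM in FAK KO samples and 6.42, 6.1 and 6.05 FPKM in FAK-WT (log2 fold change 1.58, SE 0.10, adjusted p = 3.05e-05). Trpm4, a cation channel opened by calcium, was 26.1, 31.9 and 30.7 FPKM in FAK KO samples and 14.1, 13.3 and 14.6 FPKM in FAK-WT and was lower by a log2 fold change of -1.07.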
